A study of Homo sapiens with 3 samples.

Results

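Cells in which ABCB1 was detected were described in 3 single-cell RNA libraries of FaDu, a human line from a squamous carcinoma of the hypopharynx. ABCB1 encodes P-glycoprotein, a pump that exports drugs from cells. The cells were chosen by their ABCB1 count, as barcodes with at least 5000 UMIs (RNA molecules, each counted once by its unique molecular identifier), at most 20% mitochondrial UMIs and at least 1 ABCB1 UMI. They were 866 of the 17590 cells that passed the same limits on UMIs and mitochondrial share. Because a rare transcript is found more readily in a deeply sequenced cell, each was set beside the 5 cells of its own library that held 0 ABCB1 UMIs and lay nearest in total UMIs, 4330 comparison cells in all, none used again. A count of 0 does not show that a cell lacks ABCB1 RNA, so the comparison cells can include cells whose ABCB1 molecules were missed.

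Each library was the only one of its group. The FaDu cinobufotalin library came from FaDu cells given cinobufotalin, a steroid of the bufadienolide class, which occurs in toad venom, and held 139 of the ABCB1-detected cells among 5979 kept. The resistant TPF library came from a FaDu subline that had been made resistant to TPF (paclitaxel, cisplatin and fluorouracil) and was given TPF, and held 343 among 4657. The resistant TPF cinobufotalin library came from the same subline given TPF together with cinobufotalin, and held 384 among 6954. The labels give no dose or time of treatment, and do not say whether the subline is 1 clone. Libraries of untreated FaDu cells, of FaDu cells under TPF or of the subline off TPF were not analysed here. Differences between libraries have no test, and every interval below is a 95% interval of counting error alone (exact Poisson for levels, Clopper-Pearson for shares).

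P-glycoprotein sits in the plasma membrane and uses ATP to move many unrelated, mostly hydrophobic compounds out of the cell. Paclitaxel is a classical substrate, whereas cisplatin and fluorouracil are not considered typical ones. Transcription of ABCB1 is known to respond to cellular stress and to drugs, and its promoter region has been described as holding a CCAAT box, GC boxes and an AP-1 motif, the last being the sequence bound by FOS and JUN.

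ABCB1 (ENSG00000085563) spans 7:87503633-87713323 on the minus strand (GENCODE 29, GRCh38). RUNDC3B, on the plus strand at 7:87627548-87832296, and the pseudogene HNRNPA1P9 at 7:87521461-87522410 overlap it. The libraries were made from RNA 3′ ends and do not tell which of the ABCB1 start sites was used, so the stretches before both annotated starts are shown. Beside them stand those before DDIT3 and GADD45B, the stress genes whose levels differed most clearly between ABCB1-detected and comparison cells below. Sequences are from RefSeq (GRCh38.p14), 5′ to 3′ on the gene's strand, limited to the part of the 250 bases before the start that lies in no annotated exon. Capitals mark matches, on either strand, to CCAAT, to GGGCGG (GC box) or to TGANTCA (AP-1).
ABCB1, upstream start, chr7:87713324-87713545, minus strand: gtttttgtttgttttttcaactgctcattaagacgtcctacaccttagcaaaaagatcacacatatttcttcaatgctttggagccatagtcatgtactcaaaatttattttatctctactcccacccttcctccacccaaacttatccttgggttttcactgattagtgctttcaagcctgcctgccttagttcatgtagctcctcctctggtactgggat
ABCB1, downstream start, chr7:87601079-87601134, minus strand: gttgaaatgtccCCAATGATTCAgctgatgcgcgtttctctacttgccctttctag
DDIT3, chr12:57520518-57520709, minus strand: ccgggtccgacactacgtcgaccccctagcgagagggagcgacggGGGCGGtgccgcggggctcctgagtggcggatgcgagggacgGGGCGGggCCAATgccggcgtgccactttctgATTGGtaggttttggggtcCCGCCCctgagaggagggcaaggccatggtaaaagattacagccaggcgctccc
GADD45B, chr19:2475877-2476121, plus strand: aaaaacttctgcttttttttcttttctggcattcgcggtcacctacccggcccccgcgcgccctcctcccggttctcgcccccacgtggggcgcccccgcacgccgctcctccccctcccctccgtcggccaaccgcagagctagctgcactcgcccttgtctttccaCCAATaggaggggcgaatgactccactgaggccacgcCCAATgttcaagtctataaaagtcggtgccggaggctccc
The downstream ABCB1 stretch was only 56 bases long, since 194 of the 250 bases before that start lie in annotated exons. It holds none of the bases nearest the start. In it were a CCAAT 238 bases before the start and an overlapping TGATTCA at 234 bases. Whether these are the promoter elements described for ABCB1 was not tested. DDIT3 had CCAAT or its complement at 97 and 73 bases before the more upstream of its listed starts and GC boxes at 147, 105 and 54 bases, and GADD45B had CCAAT at 82 and 45 bases. No match to these 3 motifs lay in the upstream ABCB1 stretch. Outside the stretches shown, the 250 bases held ATTGG at 79 bases before the downstream ABCB1 start and TGACTCA at 238 bases before the DDIT3 start. In the 250 bases before 35116 promoters as a whole, CCAAT occurred in 32.0%, GGGCGG in 42.6% and TGANTCA in 6.57%, so CCAAT and the GC box were frequent in general. These matches describe the sequence only and were not tested for binding.

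ABCB1 was scarce in every library. In the FaDu cinobufotalin library 2.33% of cells (1.96 to 2.74) held a UMI of it, in the resistant TPF library 7.37% (6.63 to 8.15) and in the resistant TPF cinobufotalin library 5.52% (5.00 to 6.09). Summed over all kept cells, ABCB1 had 163 UMIs or 0.985 CPM (0.84 to 1.15; CPM are UMI counts brought to a common library total), 396 UMIs or 2.94 CPM (2.66 to 3.24) and 434 UMIs or 3.26 CPM (2.96 to 3.58) in the same order. Both resistant libraries were thus about 3 times as high as the FaDu cinobufotalin library, with intervals that did not overlap, while their own intervals overlapped each other. With every cell thinned to 5000 UMIs, ABCB1 was found in 26 cells or 0.435% (0.284 to 0.637), 65 cells or 1.40% (1.08 to 1.78) and 123 cells or 1.77% (1.47 to 2.11). The resistant libraries therefore changed places between the unthinned share and the other measures. Their median depth differed, at 28368 UMIs with TPF and 18514 with TPF and cinobufotalin, and no order between them is read from the unthinned share. The FaDu cinobufotalin library had a median of 24772 UMIs. No cell type known to lack ABCB1 was present in this cell line, so the share that free RNA alone would give could not be measured.

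The share of cells with an ABCB1 UMI was lowest among the shallowest cells of each library. In the FaDu cinobufotalin library it went from 0.699% at 5000 to 10000 UMIs over 1.58% and 2.60% to 2.97% at 40000 UMIs and over. In the resistant TPF library the 4 shares were 2.56%, 6.35%, 7.66% and 7.63%, and in the resistant TPF cinobufotalin library 3.63%, 4.97%, 6.54% and 11.1%, the last from 5 of 45 cells. The level in CPM did not follow that order. It was highest at 10000 to 20000 UMIs in the resistant TPF library (5.41 CPM) and at 5000 to 10000 UMIs in the resistant TPF cinobufotalin library (5.36 CPM), and lowest in all 3 libraries at 40000 UMIs and over (0.562, 1.77 and 1.28 CPM). In the resistant TPF library a single cell gave 13 of the 50 ABCB1 UMIs at 10000 to 20000 UMIs. The level there at 5000 to 10000 UMIs was 4.53 CPM, from 4 ABCB1 UMIs.

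**Figure D1:**
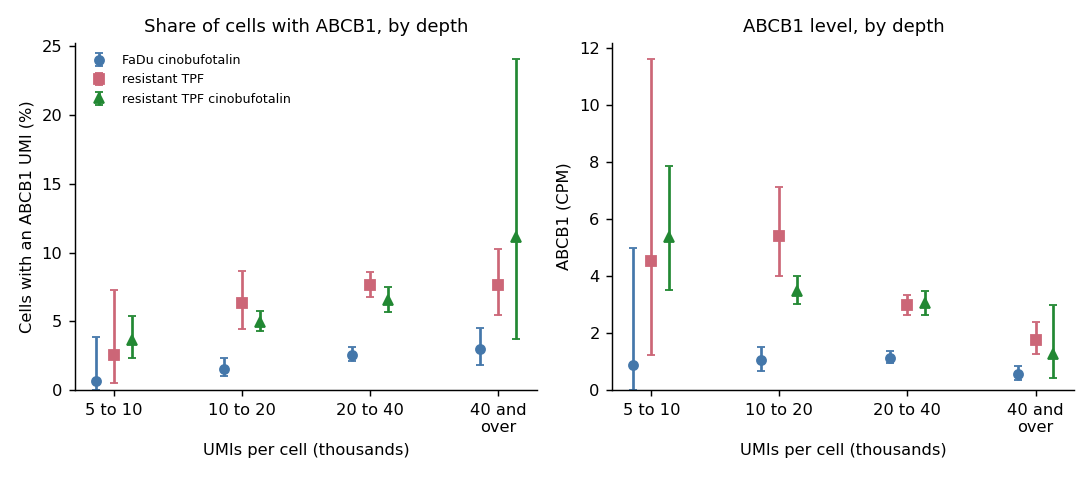
Share of cells with at least 1 ABCB1 UMI (left, %) and ABCB1 level (right, CPM) in 4 ranges of UMIs per cell for the 3 libraries. Points are values over all kept cells of the range and bars are 95% intervals of counting error. The shares were lowest at 5000 to 10000 UMIs, whereas the level was lowest at 40000 UMIs and over in every library.

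ABCB1 also varied with the share of MALAT1, a long noncoding RNA that stays in the nucleus. ABCB1 in the resistant TPF library was at 1.30 CPM (0.76 to 2.09) in cells with under 0.1% MALAT1, 1.05 CPM (0.60 to 1.71) at 0.1% to 0.3%, 2.91 CPM (2.49 to 3.38) at 0.3% to 1% and 4.02 CPM (3.48 to 4.64) at 1% and over. The resistant TPF cinobufotalin library gave 1.62, 1.47, 3.55 and 4.22 CPM over the same ranges. The FaDu cinobufotalin library showed no such order, with 0.716 CPM (0.558 to 0.905), 1.62 CPM (1.19 to 2.15), 1.2505 CPM and 1.04 CPM (0.54 to 1.82). At 0.1% to 0.3% MALAT1 the resistant TPF library thus lay below the FaDu cinobufotalin library, with overlapping intervals, and at 1% and over it lay about 4 times as high. The 47 UMIs of the FaDu cinobufotalin library at 0.1% to 0.3% included 9 and 5 from single cells. By share of cells with ABCB1 that range had the other order, at 2.53% in the FaDu cinobufotalin and 3.48% in the resistant TPF library. The 192 UMIs of the resistant TPF library at 1% and over included 13 and 5 from single cells. The libraries were filled very differently: the median cell had 0.0877% MALAT1 in the FaDu cinobufotalin library against 0.811% and 0.739%, and under 0.1% MALAT1 lay 3112, 413 and 1003 cells. The part of the MALAT1 share in the difference between libraries was not tested beyond these ranges.

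**Figure D2:**
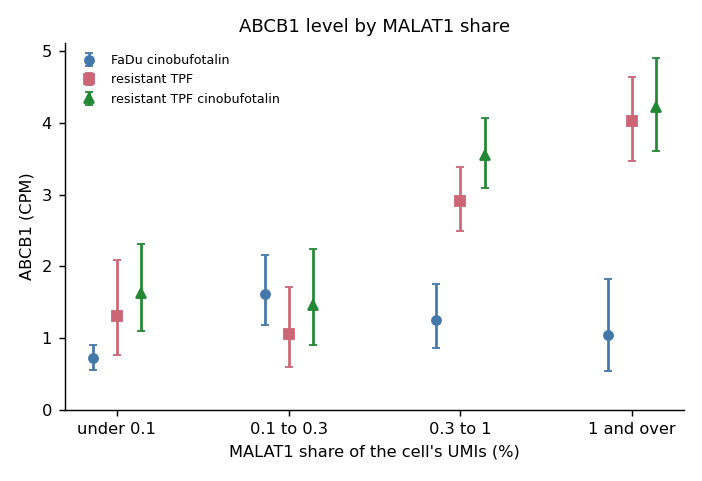
ABCB1 level (CPM) in 4 ranges of the MALAT1 share of a cell's UMIs (%), for the 3 libraries. Points are values over all kept cells of the range and bars are 95% Poisson intervals of counting error. The resistant libraries reached 4.02 and 4.22 CPM at 1% MALAT1 and over, while the FaDu cinobufotalin library stayed between 0.716 and 1.62 CPM.

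Most ABCB1-detected cells held a single molecule. In the FaDu cinobufotalin library 127 cells had 1 UMI, 8 had 2, 2 had 3 or 4 and 2 had at least 5. The resistant TPF library had 310, 27, 4 and 2 such cells, and the resistant TPF cinobufotalin library 340, 38, 6 and 0. Cells just inside the rule, with 1 UMI, were therefore 777 of the 866, and cells just outside it were those with 0. Cells with 2 or more UMIs numbered 12, 33 and 44, against 2.83, 17.4 and 15.4 for 1 rate of ABCB1 per UMI in all cells of a library, that is 4.24, 1.89 and 2.85 times as many. Genes with like totals (at least 0.8 times the UMIs of ABCB1 and at most the inverse of that) had median ratios of 1.87, 1.61 and 1.53, with quartiles of 1.23 to 2.76, 1.30 to 2.02 and 1.254 to 1.99. ABCB1 was thus above the upper quartile of such genes in the FaDu cinobufotalin and resistant TPF cinobufotalin libraries and inside the quartiles in the resistant TPF library.

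The cells richest in ABCB1 differed from each other. In the FaDu cinobufotalin library the highest held 9 ABCB1 UMIs among 27894, with 5831 genes and 4.12% mitochondrial UMIs, and also 15 UMIs of DDIT3 and 17 of DHRS2. The highest cell of the resistant TPF library held 13 ABCB1 UMIs among 10399, with 17.6% mitochondrial UMIs, 1.24% ribosomal protein UMIs and none of DDIT3. Only 0.0430% of the cells of that library had a lower ribosomal share. Another cell in each of these libraries held 5 ABCB1 UMIs. The highest count in the resistant TPF cinobufotalin library was 3. Without the 4 cells with at least 5 UMIs the ABCB1 levels were 0.901, 2.81 and 3.26 CPM.

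The ABCB1-detected cells carried the squamous identity of the line. All 11 squamous epithelial markers (keratins such as KRT5 and KRT17, EPCAM, CDH1, TP63) were at 5 CPM or more in every set of ABCB1-detected and comparison cells, summing to 7613, 5138 and 4096 CPM in the former and 7420, 5581 and 4329 CPM in the latter. None of the 10 lymphocyte and NK cell markers reached 5 CPM in any set (summed 0.914 to 3.35 CPM), and PTPRC, CD3E, CD2 and MS4A1 were at 0 in all of them. None of the 10 fibroblast markers did so either (summed 6.86 to 12.6 CPM), with COL1A2, LUM and PDGFRA at 0. Of the 10 endothelial markers, whose cells are known to carry P-glycoprotein in some vessels, only SLC2A1 and ERG reached 5 CPM, and KDR was detected in 1 set of comparison cells alone. Of 8 myeloid, 6 erythroid and 10 hepatocyte and enterocyte markers 1 to 2, 1 and 1 reached 5 CPM in each set, and none of these lists summed to more than 27.4 CPM. By these markers both kinds of cell were squamous epithelial cells. By pair of libraries 12, 18 and 19 barcode sequences were shared, none of them an ABCB1-detected cell in both. The libraries held 6888, 6081 and 8888 barcodes with 137553238 to 167448330 UMIs.

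At equal depth the ABCB1-detected cells had more genes detected. Median UMIs were 27469 against 27468, 28747 against 28737 and 19881.5 against 19878.5 in ABCB1-detected and comparison cells of the 3 libraries. Their median gene numbers were 5224 against 4932, 6159 against 5924 and 5015.5 against 4853. MALAT1 took a median of 0.141% against 0.0708% of UMIs, 0.941% against 0.780% and 0.833% against 0.697%, and ribosomal protein genes 18.3% against 19.1%, 13.0% against 13.7% and 13.5% against 14.4%. Mitochondrial shares were close, at 4.14% against 3.64%, 4.09% against 4.01% and 3.62% against 3.60%. Since these differences move with every result below, the lists and leading genes are given a second time against comparison cells matched on UMIs, genes per cell and MALAT1 share together (the closely matched cells), whose medians were 5184, 6115 and 5015.5 genes and 0.131%, 0.933% and 0.839% MALAT1.

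Differences shared by the libraries were tested on UMI counts summed over ABCB1-detected and over comparison cells of each library, with edgeR's quasi-likelihood test and the library as a block. The 6 sums come from libraries of different conditions, so a p-value measures how far the ratio varied over 3 unlike libraries rather than over replicates of one condition. ABCB1 was left out, since it chose the cells. Of 16955 genes tested, 759 were higher (4.48%) and 1158 lower (6.83%) in ABCB1-detected cells at an adjusted p under 0.05, and among the 10376 genes with a mean of at least 5 CPM these were 586 (5.65%) and 1124 (10.8%). Most differences were small: the median log2 ratio was 0.43 among higher and -0.24 among lower genes, and 95 and 16 genes were at least 2-fold apart. Of the higher genes 84.5% and of the lower 97.9% had the same direction in all 3 libraries. Higher genes were long, with a median span of 54.5 kb, and lower genes short, with 13.2 kb, beside 36.6 kb for genes not called. In level the higher genes, at a median of 22.7 CPM, lay near the genes not called (20.7 CPM), whereas the lower genes were abundant (149 CPM).

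These counts depended on how cells were compared. With totals of all UMIs in place of TMM factors the median gene moved from -0.008 to 0.111 and the split to 2353 higher and 295 lower, and all 759 higher but 295 of the 1158 lower genes were called again. Against the closely matched cells 282 genes were higher and 157 lower, which included 266 of the 759 and 146 of the 1158. Without the FaDu cinobufotalin library 1205 and 1294 genes were called, without the resistant TPF library 151 and 400, and without the resistant TPF cinobufotalin library 190 and 321. The following paragraphs read each list's counts in the main comparison against the 5.65% higher and 10.8% lower among genes of at least 5 CPM. For counts against the closely matched cells the background is 226 higher and 153 lower of those 10376 genes. For counts with totals of all UMIs it is 1995 higher and 280 lower. Genes with near-identical copies, among them TYW1B, KRT6A, SPRR1B, CXCL3, FTH1, GAPDH and the tubulins, have uncertain counts.

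DDIT3 and GADD45B, both inducible by stress, were among the 12 highest genes. DDIT3, which encodes CHOP, a transcription factor induced by endoplasmic reticulum and amino acid stress, was at 83.4 against 54.7 CPM in ABCB1-detected and comparison cells of the FaDu cinobufotalin library, 276 against 144 CPM in the resistant TPF library and 248 against 133 CPM in the resistant TPF cinobufotalin library. Its ratio was above 1 in each library and 1.66-fold in the fit (log2 0.73, SE 0.056, adjusted p 2.76e-08, edgeR). GADD45B, a growth arrest and DNA damage inducible gene, was at 64.9 against 45.2, 229 against 125 and 196 against 104 CPM (log2 0.70, SE 0.060, adjusted p 9.6e-08). Both differences were larger in the resistant libraries than in the FaDu cinobufotalin library, a contrast that was not tested. Against the closely matched cells DDIT3 was at 0.56 and GADD45B at 0.55 on the log2 scale, with adjusted p of 8.97e-09 and 1.07e-07. DDIT3 was found in 67.6% against 57.0%, 81.9% against 76.4% and 74.5% against 67.0% of cells, shares that differed less than the levels did. The highest single cell gave 6.85%, 4.26% and 3.00% of the DDIT3 UMIs of the ABCB1-detected cells.

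The other genes of the unfolded protein and integrated stress response list moved less. Of its 15 measured members 2 were higher, DDIT3 and XBP1 (log2 0.24, adjusted p 0.00568), and 2 lower, SDF2L1 (-0.26) and the cystine transporter SLC7A11 (-0.27). The list's median was 0.080 beside -0.024 for all genes of at least 5 CPM, and with totals of all UMIs 7 were higher and 0 lower. Of these 4, DDIT3 alone was called against the closely matched cells, and DDIT3 alone without the resistant TPF library or without the resistant TPF cinobufotalin library. DDIT3 therefore stood out from a list that as a whole lay near the other genes.

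Immediate early genes are transcribed within minutes of a stimulus, and FOS, JUN and EGR1 encode transcription factors. Of 15 measured members 8 were higher and 0 lower, with a median of 0.21, and 6 were higher and 0 lower against the closely matched cells, with a median of 0.12. FOS was at 226 against 154, 565 against 407 and 564 against 374 CPM, higher in every library (log2 0.42, SE 0.041, adjusted p 7.86e-07). JUN was at 118 against 84.8, 509 against 364 and 447 against 324 CPM (0.36, and 0.20 against the closely matched cells). EGR1 was at 99.4 against 74.5, 145 against 111 and 217 against 147 CPM (0.34, adjusted p 7.59e-05). ARC, known for its role in neurons, was at 0.38, a call that was lost without the resistant TPF cinobufotalin library (0.32, adjusted p 0.106).

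EGR1 and JUN were also the only called members among 17 measured genes reported as regulators of ABCB1 transcription, of which 2 were higher and 0 lower with a median of 0.019. The list was assembled from general knowledge of the gene and its median lay close to that of all genes. Both calls held against the closely matched cells.

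DHRS2, a short-chain dehydrogenase, had the highest ratio of the named genes, and it rested on few cells. It was at 64.0 against 25.2, 18.5 against 6.91 and 19.8 against 4.71 CPM (log2 1.42, SE 0.11, adjusted p 2.76e-08, and 1.35 against the closely matched cells). A single cell gave 117 of its 280 UMIs in the ABCB1-detected cells of the FaDu cinobufotalin library, 54 of 192 in the resistant TPF library and 25 of 157 in the resistant TPF cinobufotalin library. Without that cell the levels were 37.5, 13.4 and 16.7 CPM, still above the comparison cells. The 3 highest cells together gave 61.8%, 54.7% and 42.0% of these UMIs. Whether the level stays above the comparison cells without all 3 was not tested. DHRS2 was found in 20.1% against 14.7%, 9.62% against 5.77% and 8.07% against 4.12% of cells.

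The other genes at the top, each with a mean of at least 20 CPM and the same direction in all libraries, had log2 ratios of 0.60 to 0.78. Among them were DNAJC25 (0.78), a DnaJ-domain protein, TYW1B (0.69), TXNDC16 (0.67), the long noncoding RNA SNHG12 (0.66), ABTB2 (0.64), IER5L (0.63), SLIT2 (0.61), a secreted guidance factor, and FRMD5 (0.60). TXNDC16 and TYW1B had log2 ratios of 1.00 and 0.98 in the FaDu cinobufotalin library and 0.50 and 0.51 in the resistant TPF cinobufotalin library. Several intervals of counting error in the FaDu cinobufotalin library spanned both signs. They were those of SNHG12 (-0.17 to 0.44), SLIT2 (-0.36 to 0.73), ABTB2 (-0.20 to 0.61) and DNAJC25 (-0.15 to 0.76). That of IER5L began at -2.99e-06. Those of FRMD5, TXNDC16 and TYW1B were positive there, and those of all 8 were positive in both resistant libraries. These 8 were called again against the closely matched cells, where SNHG12 (0.43), ABTB2 (0.38), SLIT2 (0.36) and FRMD5 (0.35) had shrunk by more than 1.5 times.

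**Figure D3:**
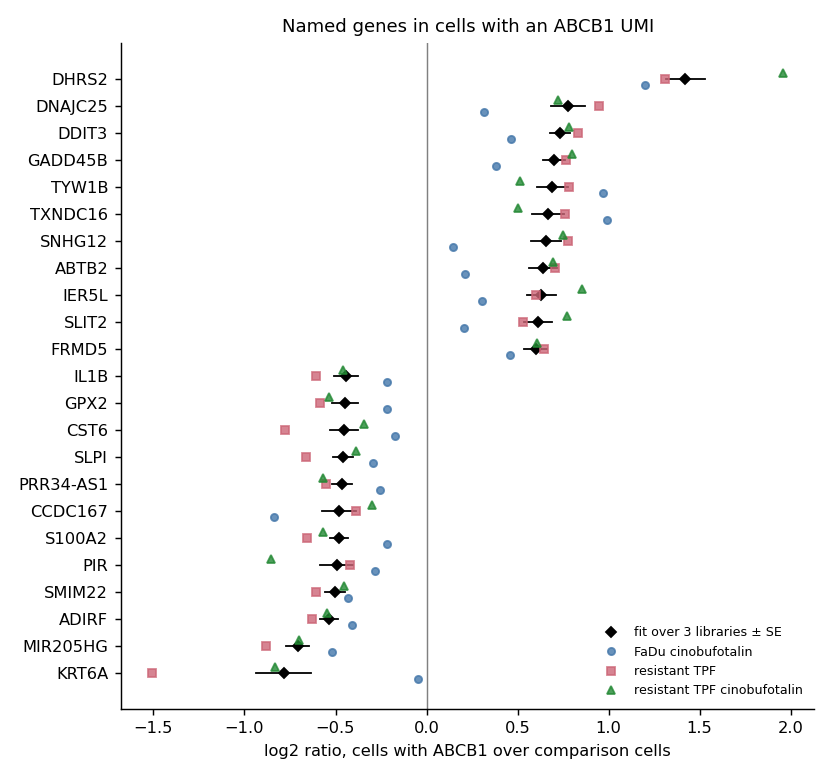
Log2 ratio of ABCB1-detected over comparison cells for 11 of the 12 highest and for the 12 lowest genes (adjusted p under 0.05, mean of at least 20 CPM, same direction in all libraries). Diamonds with bars are the edgeR fit ± SE and coloured symbols the 3 libraries, scaled by TMM. DHRS2 reached 1.42 and KRT6A -0.79, and KRT6A was near 0 in the FaDu cinobufotalin library.

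Among p53 target genes 2 of 18 measured members were higher and 0 lower, the antiproliferative gene BTG2 (0.37) and SESN1 (0.42). BTG2 was called again against the closely matched cells and SESN1 was not (adjusted p 0.365). Without the resistant TPF library neither passed (adjusted p 0.155 and 0.457), nor did SESN1 without the resistant TPF cinobufotalin library (adjusted p 0.270). Of 15 measured inflammatory chemokines and cytokines 4 were higher and 2 lower, and the higher ones included IL32 (0.46) and the neutrophil chemokine CXCL3 (0.29), the lower ones IL1B (-0.44) and IL1A (-0.28). CXCL3 was not called without the resistant TPF library (adjusted p 0.122) or the resistant TPF cinobufotalin library (adjusted p 0.0915), nor IL1A without the resistant TPF library (adjusted p 0.0884) or against the closely matched cells (adjusted p 0.0585). Members of this list were called on both sides, and 5 were higher and 1 lower against the closely matched cells. IL32 was at 53.3 against 30.8 CPM in the resistant TPF library and 10.97 against 10.7 CPM in the FaDu cinobufotalin library, and without the resistant TPF library it had a log2 ratio of 0.20 (adjusted p 0.505). SNAI1, which encodes a repressor of epithelial genes, was the 1 higher gene among 7 measured mesenchymal genes (0.53, and 0.46 against the closely matched cells), with an adjusted p of 0.0695 without the resistant TPF library.

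Squamous differentiation genes were lower in ABCB1-detected cells. Of 11 measured members 7 were lower and 0 higher, with a median of -0.30 over the list and of -0.19, -0.43 and -0.44 in the 3 libraries. SPRR1B, a precursor of the cornified envelope, was at 10.5 against 18.0, 7.43 against 26.6 and 4.54 against 16.0 CPM, lower in each library (log2 -1.69, SE 0.14, adjusted p 5.06e-08). S100A9, a calcium-binding protein of stressed and differentiating keratinocytes, was at 11.7 against 19.2, 16.1 against 38.0 and 11.9 against 22.9 CPM (-1.18, SE 0.094). CNFN, another protein of the cornified envelope, was at -0.88. Against the closely matched cells 3 of the 11 were lower, with a median of -0.21. There SPRR1B was at -0.58 (adjusted p 0.0214), CNFN at -0.64 (adjusted p 0.0118) and S100A9 at -0.32 (adjusted p 0.0845), no longer called.

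The share of cells with these transcripts differed less than their level. SPRR1B was found in 18.7% against 17.4% of cells of the FaDu cinobufotalin library, 9.91% against 15.9% in the resistant TPF library and 5.47% against 11.7% in the resistant TPF cinobufotalin library. S100A9 was found in 13.7% against 15.7%, 16.0% against 20.8% and 9.64% against 14.1% of cells. The 95% intervals of the SPRR1B shares overlapped in the FaDu cinobufotalin library and not in the resistant libraries, and those of the S100A9 shares overlapped in all 3. The 3 highest ABCB1-detected cells of each library gave 28.3%, 36.4% and 38.9% of the SPRR1B UMIs of such cells. For S100A9 they gave 58.8%, 46.1% and 45.7%. Both genes thus rested on few cells, and how far their levels in comparison cells did so was not tested.

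KRT6A, a keratin of activated keratinocytes, differed between libraries. It was at 36.1 against 33.8 CPM in the FaDu cinobufotalin library, 9.94 against 26.1 CPM in the resistant TPF library and 8.95 against 14.7 CPM in the resistant TPF cinobufotalin library (log2 -0.79, adjusted p 0.00107). Without the resistant TPF library it was at -0.36 (adjusted p 0.209), without the FaDu cinobufotalin library at -1.25, and against the closely matched cells at -0.30 (adjusted p 0.188). KRT5, the basal keratin, was at 168 against 142, 66.4 against 76.6 and 44.6 against 62.5 CPM (-0.24, adjusted p 0.0488), and it was called in neither comparison without 1 of the resistant libraries. Of 15 measured basal keratinocyte genes 4 were lower and 0 higher, and 3 against the closely matched cells, but 0 were called with totals of all UMIs (median -0.019, beside a median gene at 0.111). The epithelial checkpoint protein SFN, or stratifin, was at 1036 against 1067, 474 against 590 and 381 against 432 CPM (-0.30), and stayed at -0.21 against the closely matched cells. PERP, a desmosome protein, was at -0.31 and -0.14 respectively.

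The other lowest genes are those named by the same rule as the highest. MIR205HG, the host of an epithelial microRNA, was at 96.9 against 126, 48.5 against 82.7 and 45.5 against 68.5 CPM, lower in each library (-0.71, SE 0.064, adjusted p 1.99e-07, and -0.48 against the closely matched cells). S100A2, a calcium-binding protein of squamous epithelium, was at 6183 against 6518, 3226 against 4709 and 4250 against 5826 CPM (-0.48). ADIRF (-0.53), SMIM22 (-0.50), the iron-binding protein PIR (-0.49), CCDC167 (-0.48), PRR34-AS1 (-0.46), the protease inhibitors SLPI (-0.46) and CST6 (-0.45), and the glutathione peroxidase GPX2 (-0.45) followed. In the close match S100A2 (-0.19), ADIRF (-0.24), SMIM22 (-0.24), PIR (-0.36) and GPX2 (-0.29) were called, and SLPI (-0.046, adjusted p 0.769), CST6 (adjusted p 0.0861), CCDC167 (0.157) and PRR34-AS1 (0.0682) were not. PIR was not called without the resistant TPF cinobufotalin library (-0.35, adjusted p 0.0714), nor CST6 without the resistant TPF library (-0.26, adjusted p 0.0723).

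Genes of the respiratory chain and the ribosome, which are short and abundant, were lower as groups, and little of this remained in the close match. Of 28 measured nuclear-encoded respiratory chain genes 26 were lower and 0 higher, with a median of -0.27, and 19 were lower with totals of all UMIs. Among them were the complex III subunit UQCR11 (-0.39), the ATP synthase subunit ATP5ME (-0.38) and the cytochrome oxidase subunit COX7C (-0.33). In the close match 3 of the 28 were lower, with a median of -0.052, UQCR11 at -0.13 (adjusted p 0.0279) and COX7C at -0.096 (adjusted p 0.0714). Of 82 ribosomal protein genes 75 were lower and 0 higher (median -0.20), 28 were lower and 1 higher with totals of all UMIs, and 2 were lower against the closely matched cells (median -0.020). Glycolysis genes had 6 of 15 lower and 0 higher, GAPDH among them (-0.25), and heat shock proteins 3 of 12 lower and 0 higher, HSPB1 among them (-0.37), and in neither list was a gene called against the closely matched cells. With totals of all UMIs 1 glycolysis gene and 2 heat shock proteins were lower. The heat shock median moved from -0.078 to 0.044, while that of all genes of at least 5 CPM moved from -0.024 to 0.096. Of 16 mitochondrially encoded genes 1 was lower and 0 higher.

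The other efflux transporters with at least 20 UMIs in ABCB1-detected cells were not called, though ABCC5 was in some settings. ABCC1, which exports glutathione conjugates, was at 16.0 against 12.2, 15.1 against 14.8 and 16.0 against 15.6 CPM (log2 -0.011, adjusted p 0.965). Its raw levels were a little higher in each library and its fitted ratio changed sign with totals of all UMIs (0.11), so no direction is given. ABCC2, an organic anion exporter, was at 0.28 (adjusted p 0.264), ABCC4 at 0.32 (adjusted p 0.273) and ABCC5 at 0.20 (adjusted p 0.116). ABCC5 was called higher with totals of all UMIs (0.32, adjusted p 0.00934) and without the FaDu cinobufotalin library (0.25, adjusted p 0.0229). ABCG2, the breast cancer resistance protein, had 24 UMIs in the ABCB1-detected and 102 in the comparison cells, which are 5 times as many cells, and was found in 0.719%, 2.92% and 3.39% against 1.44%, 2.57% and 2.34% of cells (adjusted p 0.912). A difference in ABCG2 was not detectable at this depth. Of the 4 transporters with at least 5 CPM 0 were called in either direction, with a median of 0.093.

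The genes beside ABCB1 on 7q21.12 showed no common shift: 1 of 12 measured neighbours was higher and 1 lower, with a median of 0.042. RUNDC3B, which overlaps ABCB1 on the other strand, lay below the 5 CPM of the measured genes but had the largest ratio among the neighbours with at least 20 UMIs in ABCB1-detected cells. It was at 2.29 against 0.917, 4.34 against 2.02 and 3.28 against 1.87 CPM, from 81 and 198 UMIs (log2 0.91, SE 0.21, adjusted p 0.00609), and was found in 5.76% against 2.59%, 8.46% against 5.60% and 5.47% against 3.39% of cells. The sources used here do not say whether reads were counted by strand, so reads of RUNDC3B and of ABCB1 introns cannot be told apart with certainty. The call was lost against the closely matched cells (0.65, adjusted p 0.0935), without the resistant TPF library (0.84, adjusted p 0.221) and without the resistant TPF cinobufotalin library (1.04, adjusted p 0.0660). ADAM22 was higher (0.41, adjusted p 0.0487), though not against the closely matched cells (0.24, adjusted p 0.411), without the resistant TPF library (0.30, adjusted p 0.551) or without the resistant TPF cinobufotalin library (0.39, adjusted p 0.412). SRI, the calcium-binding protein sorcin, was lower at 224 against 230, 148 against 171 and 150 against 171 CPM (-0.27, adjusted p 0.000301, and adjusted p 0.151 against the closely matched cells). ABCB4, the close paralog of ABCB1 that exports phospholipids, had 13 UMIs in ABCB1-detected and 24 in comparison cells. The comparison cells are 5 times as many. It was found in 2.16% against 0.144%, 1.46% against 0.758% and 1.30% against 0.365% of cells. These shares were higher in ABCB1-detected cells of each library, with overlapping intervals. With fewer than 20 UMIs in ABCB1-detected cells, its ratio is not given.

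Membrane partners of P-glycoprotein, genes of its caveolae and its traffic, had 4 of 14 measured members lower and 0 higher, with a median of -0.11. The caveolin CAV2 was at -0.23 and the recycling GTPases RAB11A and RAB4A at -0.20 and -0.19. Against the closely matched cells 1 of the 14 was called, CAV2 (-0.16, adjusted p 0.0183). With totals of all UMIs none was lower and 3 were higher, with a median of 0.012 beside 0.096 for all genes of at least 5 CPM. The list's median thus lay below that of all such genes under both scalings, and only its sign rested on the scaling. CAV2 was not called without the resistant TPF cinobufotalin library (adjusted p 0.0719), RAB11A was not called without any 1 of the 3 libraries (adjusted p 0.0668 to 0.137), and RAB4A was not called without the resistant TPF library (adjusted p 0.241) or the resistant TPF cinobufotalin library (adjusted p 0.405).

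Both lists of detoxification genes held more lower than higher genes. Of 11 measured genes of xenobiotic response 1 was higher, POR (0.33), which feeds electrons to cytochromes P450, and 3 were lower, led by the glutathione transferases GSTP1 (-0.38) and MGST1 (-0.35). GSTP1 was at 11260 against 12230, 6908 against 8723 and 8198 against 10200 CPM, lower in each library (SE 0.033, adjusted p 9.98e-08, and -0.12 with adjusted p 0.0031 against the closely matched cells). MGST1 was called there too (-0.16), and POR was not (adjusted p 0.0607), nor without the resistant TPF cinobufotalin library (0.26, adjusted p 0.231). Targets of NRF2, the regulator of the antioxidant response, had 7 of 14 lower and 1 higher, with a median of -0.15. Ferritin heavy chain FTH1 was at -0.29, whereas HMOX1, which degrades heme, was higher (0.28, adjusted p 0.00682). With totals of all UMIs 2 were lower and 2 higher. Against the closely matched cells 3 of the 14 were lower and 0 higher, FTH1 at -0.10 and HMOX1 at 0.15 (adjusted p 0.282). HMOX1 was not called without the resistant TPF library (adjusted p 0.130) or without the resistant TPF cinobufotalin library (adjusted p 0.382). Of 4 metallothioneins 2 were lower, MT2A among them (-0.28).

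Genes of the drugs' targets and metabolism gave few calls. Of 11 measured tubulins, the targets of paclitaxel, 2 were higher, TUBA1A (0.24) and TUBB2A (0.23), and 2 lower, TUBB (-0.28) and TUBA1B (-0.16). TUBB2A (0.26) and TUBB (-0.15) were called again in the close match. TUBA1A and TUBB2A were not called without the resistant TPF library (adjusted p 0.347 and 0.363) or without the resistant TPF cinobufotalin library (0.374 and 0.301), nor TUBA1B without the resistant TPF library (adjusted p 0.168). DPYD, the enzyme that breaks down fluorouracil, was the 1 gene called of 13 in fluoropyrimidine metabolism, at 8.46 against 6.51, 34.1 against 28.0 and 38.5 against 26.1 CPM (0.29, adjusted p 0.0171). It was not called against the closely matched cells (0.17, adjusted p 0.305), without the resistant TPF library (adjusted p 0.0657) or without the resistant TPF cinobufotalin library (0.19, adjusted p 0.521). Of 13 genes of platinum transport and nucleotide excision repair 0 were called by edgeR. Of 5 measured genes of the sodium-potassium ATPase, which bufadienolides are known to inhibit, 2 were lower, the regulators FXYD3 (-0.39) and FXYD5 (-0.31), and 0 against the closely matched cells (adjusted p 0.124 and 0.130). Without the resistant TPF library neither FXYD gene was called (adjusted p 0.0582 and 0.219), nor was FXYD5 with totals of all UMIs (adjusted p 0.0579).

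ABCB1-detected cells did not stand apart in cell cycle genes. Of 41 measured S phase genes 0 were higher and 1 lower, and of 53 G2 and M phase genes 1 was higher and 3 lower, with medians of -0.0045 and -0.015. Homologous recombination and crosslink repair genes gave 1 higher and 2 lower of 25. Interferon-stimulated genes had 1 higher of 25, the transcription factor IRF7 (0.28, and adjusted p 0.280 without the resistant TPF library), and 5 lower, and MHC class I antigen presentation 1 and 1 of 14. Among 15 genes of the BCL2 family and apoptosis 0 were higher and 2 lower, among 11 stemness-associated genes 0 and 2, and among 20 of cholesterol synthesis 0 and 0. The share lower lay above the background in the interferon-stimulated list, and in the stemness-associated (18.2%) and BCL2 (13.3%) lists from 2 genes each. So few genes cannot tell these shares from the background. Against the closely matched cells 1 stemness-associated, 1 BCL2 and 0 interferon-stimulated genes were lower. With totals of all UMIs 0 interferon-stimulated genes were lower and 8 higher.

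**Figure D4:**
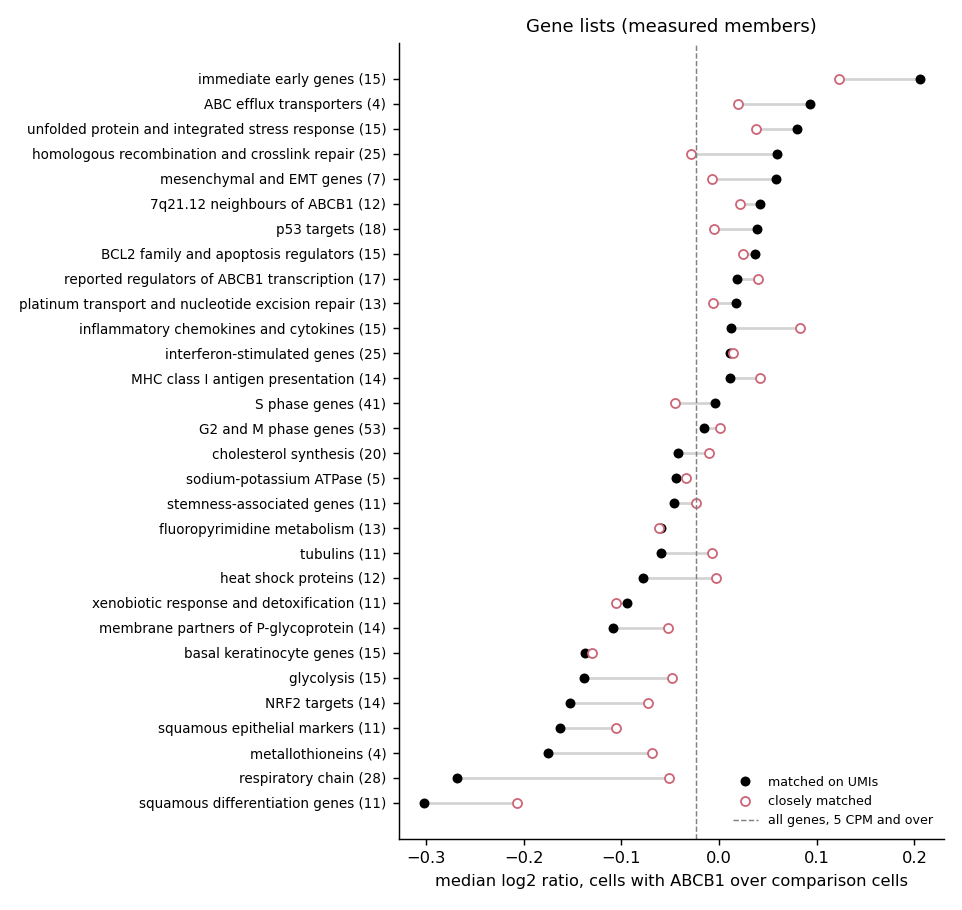
Median log2 ratio of ABCB1-detected over comparison cells in the gene lists with at least 4 measured members (number in brackets). Filled points are from comparison cells matched on UMIs and open points from those matched on UMIs, genes per cell and MALAT1 share, and the dashed line is the median of all genes of at least 5 CPM. Immediate early genes lay highest, at 0.21 and 0.12, squamous differentiation genes lowest, at -0.30 and -0.21, and the respiratory chain moved from -0.27 to -0.052.

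For several genes cells with 2 or more ABCB1 UMIs lay further from the comparison cells than cells with 1, as a description without a test. DDIT3 in the resistant TPF library was at 144 CPM in comparison cells, 255 CPM in cells with 1 ABCB1 UMI and 494 CPM in cells with 2 or more. In the resistant TPF cinobufotalin library these were 133, 230 and 392 CPM, and in the FaDu cinobufotalin library, with 12 cells in the last class, 54.7, 78.6 and 143 CPM. GADD45B followed the same order, at 125, 219 and 333 CPM, 104, 187 and 269 CPM, and 45.2, 64.2 and 73.2 CPM, and so did FOS, which reached 874, 728 and 259 CPM with 2 or more. Some of the lower genes went the other way. S100A9 was at 38.0, 17.0 and 7.41 CPM in the resistant TPF library and 22.9, 13.0 and 3.28 CPM in the resistant TPF cinobufotalin library, and it had 0 UMIs in the 12 cells of the FaDu cinobufotalin library, which allows up to 11.3 CPM. S100A2 was at 4709, 3300 and 2484 CPM and at 5826, 4392 and 3161 CPM in the resistant libraries. Others did not keep this order: KRT6A was at 14.7, 7.98 and 16.4 CPM in the resistant TPF cinobufotalin library and 33.8, 38.0 and 12.2 CPM in the FaDu cinobufotalin library. SMIM22 was at 119.9, 95.1 and 134 CPM in the FaDu cinobufotalin library. MALAT1 moved with these classes in the resistant libraries, at 9277, 10010 and 14270 CPM and at 7949, 8819 and 10570 CPM, and its part in them was not tested.

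**Figure D5:**
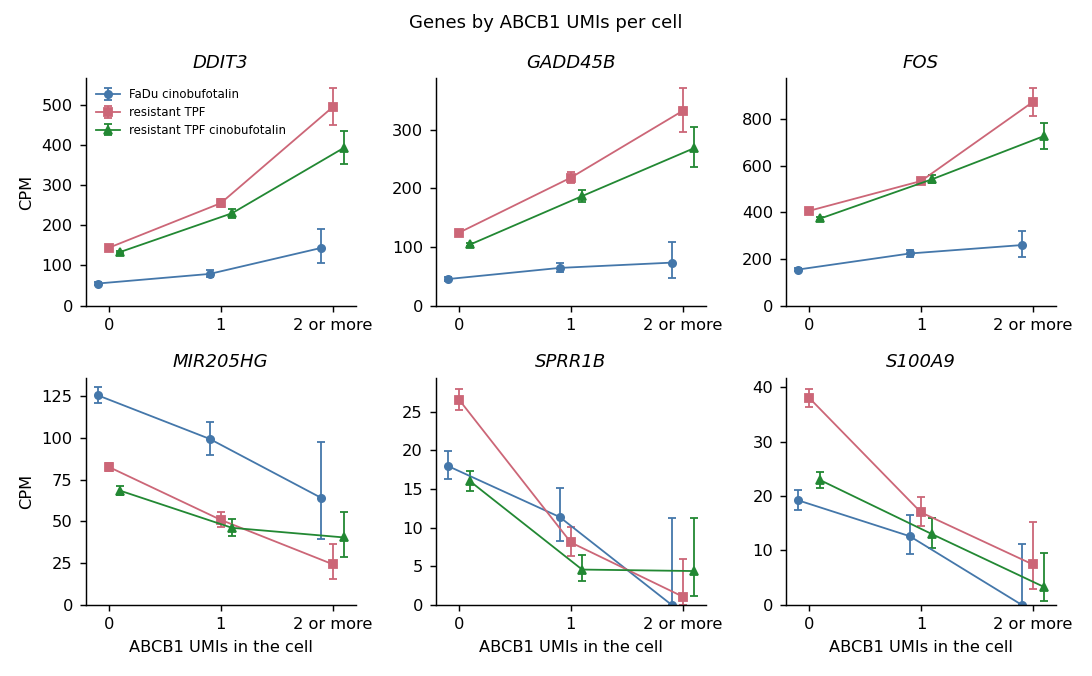
Level (CPM) of 6 genes in cells with 0 (comparison cells), 1 or at least 2 ABCB1 UMIs, for the 3 libraries. Points are values summed over the cells of a class and bars are 95% Poisson intervals of counting error. The point values of DDIT3, GADD45B and FOS were higher, and those of MIR205HG and S100A9 lower, with each step in all 3 libraries. Between 1 and at least 2 UMIs the intervals overlapped for all of these but DDIT3 in the FaDu cinobufotalin library. They also overlapped for S100A9 in the resistant TPF library and for MIR205HG in the resistant TPF cinobufotalin library.

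Set side by side across libraries, ABCB1-detected and comparison cells differed between the resistant TPF and FaDu cinobufotalin libraries in the same direction for the 5 genes given next, though not for SLPI (-0.10 among ABCB1-detected and 0.29 among comparison cells). The log2 ratio of CPM between those libraries was 1.73 among ABCB1-detected and 1.39 among comparison cells for DDIT3, 1.82 and 1.46 for GADD45B, 1.32 and 1.40 for FOS, -0.94 and -0.47 for S100A2 and -1.79 and -1.87 for DHRS2. DDIT3, GADD45B and FOS were thus higher in the resistant library in both kinds of cell. Between the resistant TPF cinobufotalin and resistant TPF libraries, which differ by cinobufotalin in the labels, the ratios were small, at -0.16 and -0.11 for DDIT3, -0.22 and -0.26 for GADD45B and -0.0042 and -0.12 for FOS. S100A2 was at 0.40 and 0.31, and DHRS2 at 0.096 and -0.55. With 1 library each, none of these has a test, and the comparisons share the resistant TPF library. The ratios are of CPM without TMM factors. Those factors were 0.851 and 0.771 for ABCB1-detected and comparison cells of the FaDu cinobufotalin library, and 1.18 and 1.09 in the resistant TPF library. The sign of small ratios between these libraries, such as those of SLPI, can therefore depend on the scaling.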

How the data were processed

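The 3 libraries were made with 10x Genomics 3′ chemistry version 3.1, per the labels' protocols. The authors deposited raw UMI counts for every gene in every barcode, which Cell Ranger 7.0 made on build hg38, per the submitters' processing notes. The sources used here do not give the use of introns or of strand. All 58735 gene IDs were found in GENCODE 29. Doublets were not removed and free RNA was not corrected for.

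Counts were summed over ABCB1-detected and comparison cells of each library (Python 3.11.15, numpy 2.4.6, pandas 2.3.3, scipy 1.17.1) and tested with edgeR 4.0.16 in R 4.3.3 (TMM, filterByExpr, quasi-likelihood test, library as block, 2 residual degrees of freedom with a prior of 21.1, Benjamini-Hochberg adjustment). DESeq2 1.42.0 was an alternative. The block pairs the 2 sums of a library because they come from the same library. The cells, 37 gene lists and tests were chosen with earlier results of these data known. A list member was measured at a mean of at least 5 CPM. Named genes were the 12 highest and 12 lowest called genes with a mean of at least 20 CPM and 1 direction in all libraries, up to 4 members of each list, and neighbours and transporters with at least 20 UMIs. Mitochondrial, ribosomal protein and clone-named genes were left out of these, and 2 genes that the rule names are not reported here. Tested on simulated data for 16955 genes, this comparison recovered 44 of 50 genes made 2-fold higher, 42 of 50 made 2-fold lower, 33 of 50 made 1.5-fold higher and 36 of 50 made 1.5-fold lower, and called 2 of 16755 unchanged genes. The simulated counts had the same dispersion for all genes (0.00144). They held no difference in genes per cell or MALAT1 share and no genes resting on few cells. The 2 calls therefore give no rate of false calls for the real data. Figures were drawn with matplotlib 3.10.9.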

Additional observations from a re-analysis of the deposited data

Results flagged for a closer look

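ABCB1 was also present in barcodes that the limits on depth and mitochondrial share left out. In barcodes with over 20% mitochondrial UMIs it was at 5.82 CPM in the FaDu cinobufotalin library (9 UMIs), 3.37 CPM in the resistant TPF library (12 UMIs) and 9.93 CPM in the resistant TPF cinobufotalin library (26 UMIs). In barcodes with under 5000 UMIs that passed the mitochondrial limit it was at 8.68 CPM in the resistant TPF library (5 UMIs) and 12.04 CPM in the resistant TPF cinobufotalin library (20 UMIs). These levels were given because the counts exceed the 3 UMIs that a count of 0 allows, in barcodes that no comparison used. Over all deposited barcodes ABCB1 was at 1.04, 2.97 and 3.49 CPM.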

How the results depend on the processing

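The ABCB1-detected share moved beyond its counting interval when cells were thinned to 5000 UMIs (0.435%, 1.40% and 1.77% in library order). The ABCB1 level moved to 1.27, 3.601 and 4.02 CPM without mitochondrial and ribosomal protein genes in the total, to 1.26, 2.55 and 2.93 CPM with TMM factors over the libraries, and to 3.32 CPM with equal weight per cell in the resistant TPF library. By range of MALAT1 it was 0.716, 1.62 and 1.2505 CPM (under 0.1%, 0.1% to 0.3%, 0.3% to 1%) in the FaDu cinobufotalin library, 1.30, 1.05 and 4.02 CPM (under 0.1%, 0.1% to 0.3%, 1% and over) in the resistant TPF library and 1.62, 1.47 and 4.22 CPM in the resistant TPF cinobufotalin library. In all of these settings but the range of 0.1% to 0.3% MALAT1 both resistant libraries lay above the FaDu cinobufotalin library. In that range the 47 UMIs of the FaDu cinobufotalin library included 9 and 5 from single cells.

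Genes higher and lower numbered 413 and 577 with comparison cells matched on UMIs and MALAT1, 282 and 157 with genes per cell matched as well, 2353 and 295 with totals of all UMIs and 183 and 688 with DESeq2. With 1 comparison cell 742 genes were lower, and without a filter on low counts 1784. Leaving out 1 library gave 151 to 1205 higher and 321 to 1294 lower genes, with 4 sums in place of 6. With no replicate block, that is without the pairing of the 2 sums of a library, edgeR called 0 higher and 0 lower (165 and 68 at an unadjusted p under 0.05), since the libraries' own differences then enter the spread. The median of immediate early genes was 0.26 with 1 comparison cell, 0.11 unmatched, 0.15 matched on MALAT1, 0.15 matched on mitochondrial share, 0.33 with totals of all UMIs and 0.12 with the close match. That of the stress response list was 0.20 with totals of all UMIs. That of the respiratory chain was -0.23 with 1 comparison cell, -0.16 matched on MALAT1, -0.20 matched on mitochondrial share, -0.15 with totals of all UMIs and -0.052 with the close match. Of 67 called genes named, 39 kept their call with the close match, 59 with totals of all UMIs, 43 without the resistant TPF library, 49 without the resistant TPF cinobufotalin library and 66 without the FaDu cinobufotalin library, and 52 of 63 with DESeq2. In the settings run for single genes, 0 of them changed sign.

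Genes that were not called did. Leaving out 1 library gave ABCC1 -0.075 to 0.052 and ABCG2 -0.18 to 0.22. ABCC1 was at 0.11 with totals of all UMIs, 0.052 without the resistant TPF library, 0.048 without the resistant TPF cinobufotalin library and 0.0075 with DESeq2. MALAT1 was at 0.040 in the fit, -0.077 unmatched, -0.080 matched on MALAT1 and -0.015 with the close match. ABCG2 was at 0.095, and at -0.18 without the resistant TPF cinobufotalin library and -0.16 with the close match. The causes of these changes were not tested. The close match, and leaving out the 4 cells with at least 5 ABCB1 UMIs, were chosen after the data were seen. The second gave 745 higher and 1139 lower genes and kept all 67 calls.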

Other observations

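GADD45G, a relative of GADD45B with a mean level below that set for named genes, was chosen here after its values were seen. Its level in the resistant TPF library was 11.2 CPM in comparison cells, 32.9 CPM in cells with 1 ABCB1 UMI and 81.6 CPM in cells with 2 or more. The resistant TPF cinobufotalin library had 11.1, 27.2 and 61.2 CPM, and the FaDu cinobufotalin library 4.59 and 6.92 CPM, with 0 UMIs in the 12 cells of the last class.

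By type of gene, at a mean of at least 5 CPM, 543 of 9659 protein-coding genes were higher and 1043 lower in ABCB1-detected cells. Of 210 long intergenic noncoding RNAs 13 were higher and 19 lower, and of 227 antisense RNAs 12 and 30.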
